A study of Mus musculus with 13 samples.

Results

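The transcripts described here are those of the mouse mitochondrial genome in fetal oocytes. They comprise all 37 rows that the deposited gene table places on chrM (mm10), out of 55335 genes in all, and the rule uses the chromosome alone. By annotation, 2 of the 37 are ribosomal RNAs, 22 are transfer RNAs and 13 are protein-coding genes. The libraries were made from Oct4-GFP+ germ cells (Pou5f1-GFP), sorted at E17.5 from the ovary pair of 1 embryo each, and 3' tags of polyadenylated RNA were sequenced. WT (n = 3) and KO (n = 3) embryos came from the constitutive cross, in which the KO allele lacks exon 3 of Nr3c1, the gene of the glucocorticoid receptor (GR), in every tissue after recombination by a β-actin Cre line. In the conditional cross, flox (n = 3) and cKO (n = 4) embryos were homozygous for the floxed allele (Nr3c1tm1.1Jda). The cKO embryos also carried the tamoxifen-dependent Cre at the Pou5f1 locus (Pou5f1tm1.1(cre/Esr1*)Yseg), which acts in germ cells, while the flox embryos lacked it. All dams of the conditional cross received 125 μg/g tamoxifen at E10.5, and the methods give no such treatment for the constitutive cross, while all embryos carried Tg(Pou5f1-EGFP)2Mnn. The genotype comparisons ask whether loss of the receptor altered these transcripts.

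The mitochondrial genome is a small maternally inherited circle that is transcribed from both strands into long precursors. In the usual account, tRNAs punctuate these precursors and are cut out, which frees the rRNAs and mRNAs, and most of these then receive short A tails. The rRNAs build the mitochondrial ribosome, and the proteins are subunits of respiratory complexes I, III and IV and of the ATP synthase (complex V). Oocytes are known for the large stock of mitochondria that they pass to the embryo.

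Each library held 2048706 to 3674989 counts, and 12946 to 15629 genes had at least 1 count. Summed oocyte markers (10 genes, Ddx4 and Dazl among them) ranged from 11676 to 18869 CPM (counts scaled to the library total) over the libraries. The sum of 15 markers of ovarian somatic cells was 117 to 394 CPM. By group it was 117 to 181 CPM in WT, 120 to 156 in KO, 137 to 317 in flox and 209 to 394 in cKO. Each cKO library thus lay above each WT and KO library in this sum. Nr3c1 had 54 to 167 counts in KO and 61 to 216 in WT, and its log2 fold change was -0.0025 ± 0.53 (SE). The cKO libraries had 82 to 211 counts of it, against 105 to 215 in flox, with a log2 fold change of -0.32 ± 0.50 (SE). For the constitutive KO, the paper reports loss of GR protein by staining and immunoblot, and loss of Nr3c1 signal by qRT-PCR in whole ovaries. Its single-cell 3' data of younger KO ovaries showed depleted Nr3c1 transcript in every cell type. The tags here report the 3' end of the transcript and not the deleted exon 3, so they do not measure the deletion itself. In these libraries the Nr3c1 counts did not separate the knockouts from their controls. For the cKO germ cells of the Pou5f1 Cre cross, the paper describes no measurement of GR loss, so its extent there is not known here. In bulk samples of this kind, fewer mitochondria per cell, less RNA per mitochondrion and a different mix of cells cannot be told apart.

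Ribosomal RNA made up most of the mitochondrial counts. Over all libraries chrM held 8.18% of the counts, of which 69.9% fell on the rRNA genes, 30.1% on protein genes and 0.0835% on tRNA genes. The 16S rRNA gene mt-Rnr2 was the most highly counted gene of the whole table, and the 12S rRNA gene mt-Rnr1 ranked second. Then came mt-Nd4 in rank 3, mt-Nd1 in rank 5, mt-Nd2 in rank 7 and mt-Cytb in rank 9, followed by mt-Co1 in rank 61, mt-Nd5 in rank 73 and mt-Nd6 in rank 156. Complex I genes took 77.2% of the protein gene counts, complex III (mt-Cytb, which encodes cytochrome b) 18.7% and complex IV 4.14%. These shares are of counts and are not corrected for length. The complex IV share rests almost wholly on mt-Co1, and complex V is at 0, because 6 of the 13 protein genes had few or no counts, as described further on, so the order of the complexes is uncertain in the same way as those genes.

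The share of the library on chrM varied from 5.37% to 13.5%. In WT it was 9.56%, 10.51% and 9.18%, and in KO it was 5.37%, 8.05% and 13.5%, so that the KO libraries lay on both sides of the WT range. The flox libraries had 9.02%, 6.70% and 6.11%. The cKO libraries had 6.80%, 7.83%, 6.59% and 7.05%, all inside the flox range. Group means were 9.75% ± 0.684 (SD, n = 3) in WT, 8.96% ± 4.12 (n = 3) in KO, 7.27% ± 1.54 (n = 3) in flox and 7.07% ± 0.543 (n = 4) in cKO. The spread within KO was the widest of the 4 groups. Without KO replicate 3 the KO mean was 6.71%, and without KO replicate 1 it was 10.8%, so the KO mean lay below or above the WT mean depending on which of these libraries was kept. The sampling error of these shares (95% exact binomial intervals within ±0.0425 percentage points, counting error only) was far below the differences between embryos.

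**Figure D1:**
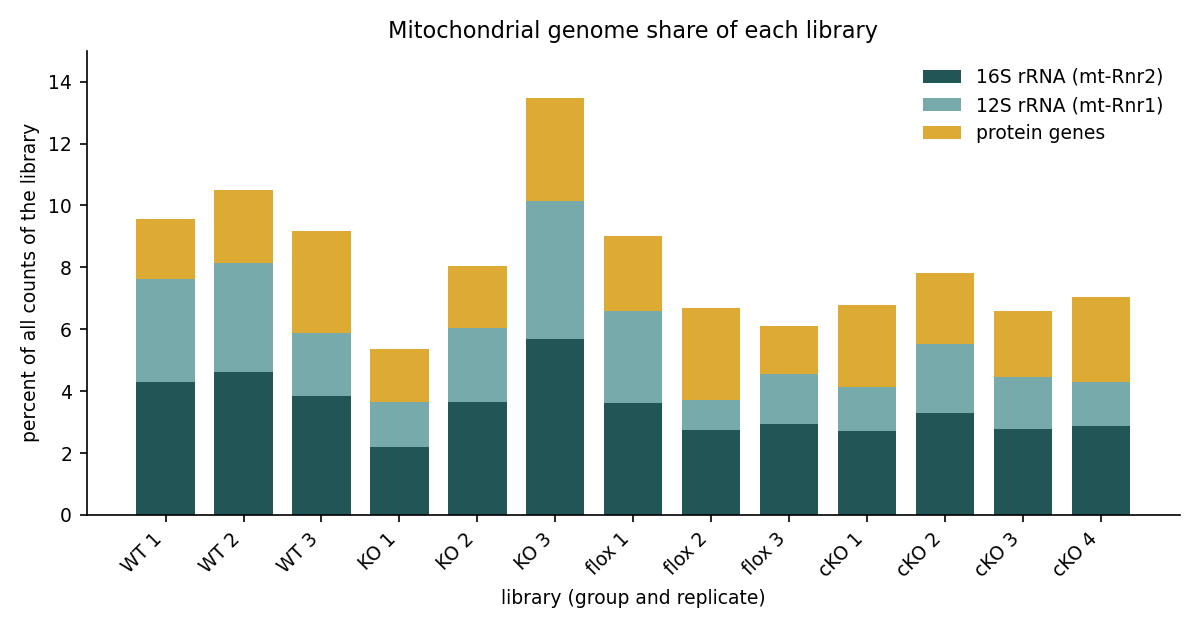
Stacked bars give the percent of each library's counts on mt-Rnr2, on mt-Rnr1 and on all mitochondrial protein genes, for the 13 libraries; tRNA counts are too few to be seen. KO replicate 3 is the tallest bar at 13.5% and KO replicate 1 the shortest at 5.37%.

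The library with the highest rRNA share was KO replicate 3, with 10.2% of its counts on the rRNA genes. The other KO libraries had 3.64% and 6.05%, so the lowest rRNA share of the series also lay in KO, in replicate 1. WT libraries had 7.62%, 8.14% and 5.87%. The flox libraries had 6.60%, 3.72% and 4.56%, and the cKO libraries 4.13%, 5.53%, 4.46% and 4.31%. KO replicate 3 had a high share on the protein genes as well, at 3.31%, next to 3.30% in WT replicate 3. It carried the highest share of 6 of the 8 members that hold at least 1% of the chrM counts (mt-Rnr1, mt-Rnr2, mt-Nd1, mt-Nd2, mt-Co1 and mt-Nd5). In mt-Nd4 it was exceeded by flox replicate 2 and WT replicate 3, and in mt-Cytb by WT replicate 3 and by cKO replicates 1 and 4. This library also had the fewest genes detected (12946) and the lowest sum of 10 erythroid markers, 0.403 CPM against 78.4 to 1263 CPM in the other 12 libraries, and the part of these in its mitochondrial share was not tested.

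Over all libraries together, the protein genes summed to a narrower range than the rRNAs, with a coefficient of variation of 23.3% against 34.0%. Within groups this order did not hold throughout. The coefficient was 27.7% against 16.5% in WT and 31.1% against 29.9% in flox. In KO it was 36.2% against 49.7%, and in cKO 11.9% against 13.7%. The share of the protein genes was 1.93%, 2.36% and 3.30% in WT, 1.73%, 1.99% and 3.31% in KO, 2.40%, 2.97% and 1.55% in flox, and 2.66%, 2.29%, 2.12% and 2.74% in cKO. The groups overlapped throughout. Means were 2.53% ± 0.701 in WT, 2.34% ± 0.847 in KO, 2.30% ± 0.717 in flox and 2.45% ± 0.293 in cKO (SD, n as above).

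The balance between the classes shifted from embryo to embryo within groups. The ratio of rRNA to protein gene counts was 3.95, 3.45 and 1.78 in WT, 2.10, 3.05 and 3.07 in KO, 2.75, 1.25 and 2.95 in flox, and 1.56, 2.42, 2.10 and 1.57 in cKO. Its lowest value, in flox replicate 2, fell in the library with the most genes detected (15629). The next lowest, in cKO replicate 1, fell in a library with 13460 genes detected. The relation of the ratio to detection was not tested. The balance between the rRNAs themselves moved too, although both lie side by side at the start of the heavy-strand transcript. The ratio of mt-Rnr1 to mt-Rnr2 counts was 0.770, 0.761 and 0.532 in WT, 0.656, 0.658 and 0.788 in KO, 0.825, 0.357 and 0.554 in flox, and 0.528, 0.677, 0.610 and 0.492 in cKO. Both extremes of that ratio thus lay in 1 group, flox.

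**Figure D2:**
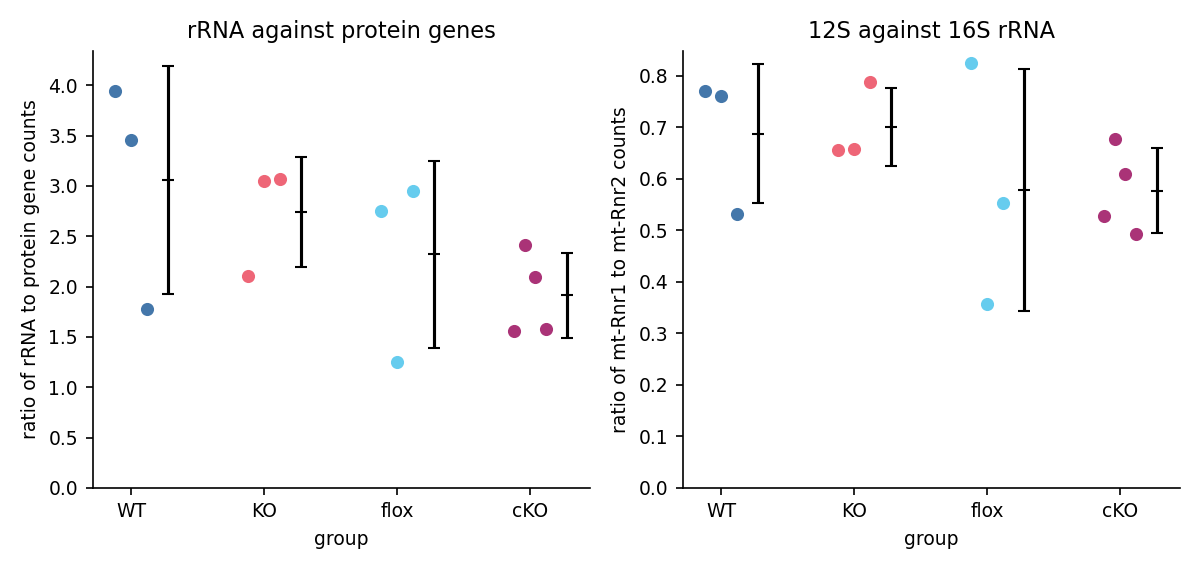
Points are libraries, with the group mean and SD as a bar to the right of each group. The left panel shows the ratio of rRNA to protein gene counts, which runs from 1.25 to 3.95, and the right panel the ratio of mt-Rnr1 to mt-Rnr2 counts, which runs from 0.357 to 0.825; in both, the groups overlap.

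Per kilobase of gene, the rRNAs were close to each other. Over all libraries mt-Rnr1 (chrM:70-1024) had 773060 counts per kb and mt-Rnr2 (chrM:1094-2675) had 721171 counts per kb, a ratio of 0.933 of the second to the first, while in plain counts mt-Rnr2 was 1.55 times mt-Rnr1. Complex I and III genes followed, in the order mt-Nd1 (182168 counts per kb), mt-Nd4 (174810), mt-Nd2 (152165) and mt-Cytb (131894). Lower again were mt-Nd6 (38983), mt-Co1 (21649) and mt-Nd5 (16963). A 3' tag protocol counts transcript ends, so the division by length is a scale and not a molar measure. The last 30 annotated bases of both rRNAs and of mt-Nd4, the most counted protein gene, are shown because 3' tags report this end of a transcript; the sequences are of the annotation (GENCODE M21, mm10), 5' to 3', on the plus strand.
mt-Rnr1, chrM:995-1024: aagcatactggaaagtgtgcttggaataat
mt-Rnr2, chrM:2646-2675: atacgtacaccctctaacctagagaaggtt
mt-Nd4, chrM:11515-11544: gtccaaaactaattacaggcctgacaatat

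For mt-Rnr1, the share of all library counts was 3.31%, 3.52% and 2.04% in WT, 1.44%, 2.40% and 4.47% in KO, 2.98%, 0.979% and 1.63% in flox, and 1.43%, 2.23%, 1.69% and 1.42% in cKO. It was the most variable of the members with a mean of at least 1000 counts. Its coefficient of variation within groups averaged 43.1%, at percentile 95.5 of the 312 nuclear genes of that abundance, whose median was 20.9%. For mt-Rnr2 the shares were 4.31%, 4.62% and 3.83% in WT, 2.20%, 3.65% and 5.68% in KO, 3.62%, 2.74% and 2.93% in flox, and 2.71%, 3.30%, 2.77% and 2.89% in cKO. With 22.8%, mt-Rnr2 was the least variable of these 9 members, near the nuclear median. The 7 protein genes lay between the rRNAs, from 24.0% (mt-Nd2) to 34.3% (mt-Nd6).

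Of the complex I genes, mt-Nd4 held 0.531%, 0.802% and 0.9503% of the counts in WT, 0.507%, 0.598% and 0.890% in KO, 0.571%, 1.09% and 0.449% in flox, and 0.744%, 0.721%, 0.687% and 0.848% in cKO. The highest and the lowest value both belonged to flox libraries. For mt-Nd1 the shares were 0.417%, 0.397% and 0.696% in WT, 0.351%, 0.393% and 0.789% in KO, 0.572%, 0.566% and 0.323% in flox, and 0.642%, 0.501%, 0.466% and 0.610% in cKO. For mt-Nd2 they were 0.419%, 0.604% and 0.630% in WT, 0.338%, 0.397% and 0.668% in KO, 0.508%, 0.578% and 0.327% in flox, and 0.409%, 0.414%, 0.417% and 0.468% in cKO. In each of these genes KO replicate 3 was high and KO replicate 1 low among the KO libraries, and WT and KO overlapped. Less abundant was mt-Nd5, with 0.0954%, 0.112% and 0.108% in WT, 0.0665%, 0.0756% and 0.151% in KO, 0.138%, 0.0764% and 0.0686% in flox, and 0.0721%, 0.0702%, 0.0746% and 0.106% in cKO.

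The cytochrome b gene mt-Cytb held 0.326%, 0.300% and 0.702% of the counts in WT, 0.329%, 0.370% and 0.536% in KO, 0.422%, 0.534% and 0.278% in flox, and 0.617%, 0.441%, 0.369% and 0.540% in cKO. WT replicate 3, with the lowest rRNA to protein ratio of its group, had the highest mt-Cytb share of the series. For mt-Co1, which encodes the catalytic subunit of complex IV, the shares were 0.0970%, 0.0736% and 0.158% in WT, 0.0886%, 0.105% and 0.178% in KO, 0.102%, 0.0788% and 0.0580% in flox, and 0.103%, 0.0889%, 0.0646% and 0.0903% in cKO. Among the non-rRNA counts of chrM the composition was steadier. Over the 13 libraries mt-Nd4 averaged 29.8% of them, with a range of 23.7% to 36.5%, and mt-Nd1 21.3% ± 2.07 (SD), mt-Nd2 19.8% ± 2.43, mt-Cytb 18.2% ± 2.51, mt-Co1 4.10% ± 0.930 and mt-Nd5 3.92% ± 0.924.

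The light strand carries 9 of the 37 genes. Only mt-Nd6, which encodes a complex I subunit and whose mRNA is known to lack a long A tail, is a protein gene on that strand, and it held 0.0419% to 0.0974% of the counts. The other 8 light-strand genes are tRNAs, among them mt-Tp and mt-Tq. The tRNAs together held 2246 counts, of which mt-Tp (proline) had 1641, with 13 to 368 per library, and mt-Tq (glutamine) had 366. Next came mt-Tm (121 counts), mt-Tc (51) and mt-Tn (31), and 5 more tRNAs had 1 to 15 counts each. The remaining 12 tRNA genes had 0 counts in all libraries, which allows at most 0.816 to 1.46 CPM in a library (3 counts of its total). Whether counting used the strand is not given in the sources used here, so reads from opposite strands cannot be told apart. The 14 bases that mt-Nd5 and mt-Nd6 share, on opposite strands, fall under this limit.

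A run of 6 neighbouring protein genes was almost without counts. From mt-Co2 to mt-Nd4l (chrM:7013-10173, 3161 bases), mt-Atp8, mt-Atp6, mt-Co3, mt-Nd3 and mt-Nd4l had 0 counts in all 13 libraries, and mt-Co2 had 8 counts, all in cKO replicate 3. They encode subunits of complex IV (mt-Co2, mt-Co3), of the ATP synthase (mt-Atp8, mt-Atp6) and of complex I (mt-Nd3, mt-Nd4l). On either side of this stretch, mt-Co1 had 33447 counts and mt-Nd4 had 240888. The 7 protein genes outside the stretch each had at least 20232 counts.

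**Figure D3:**
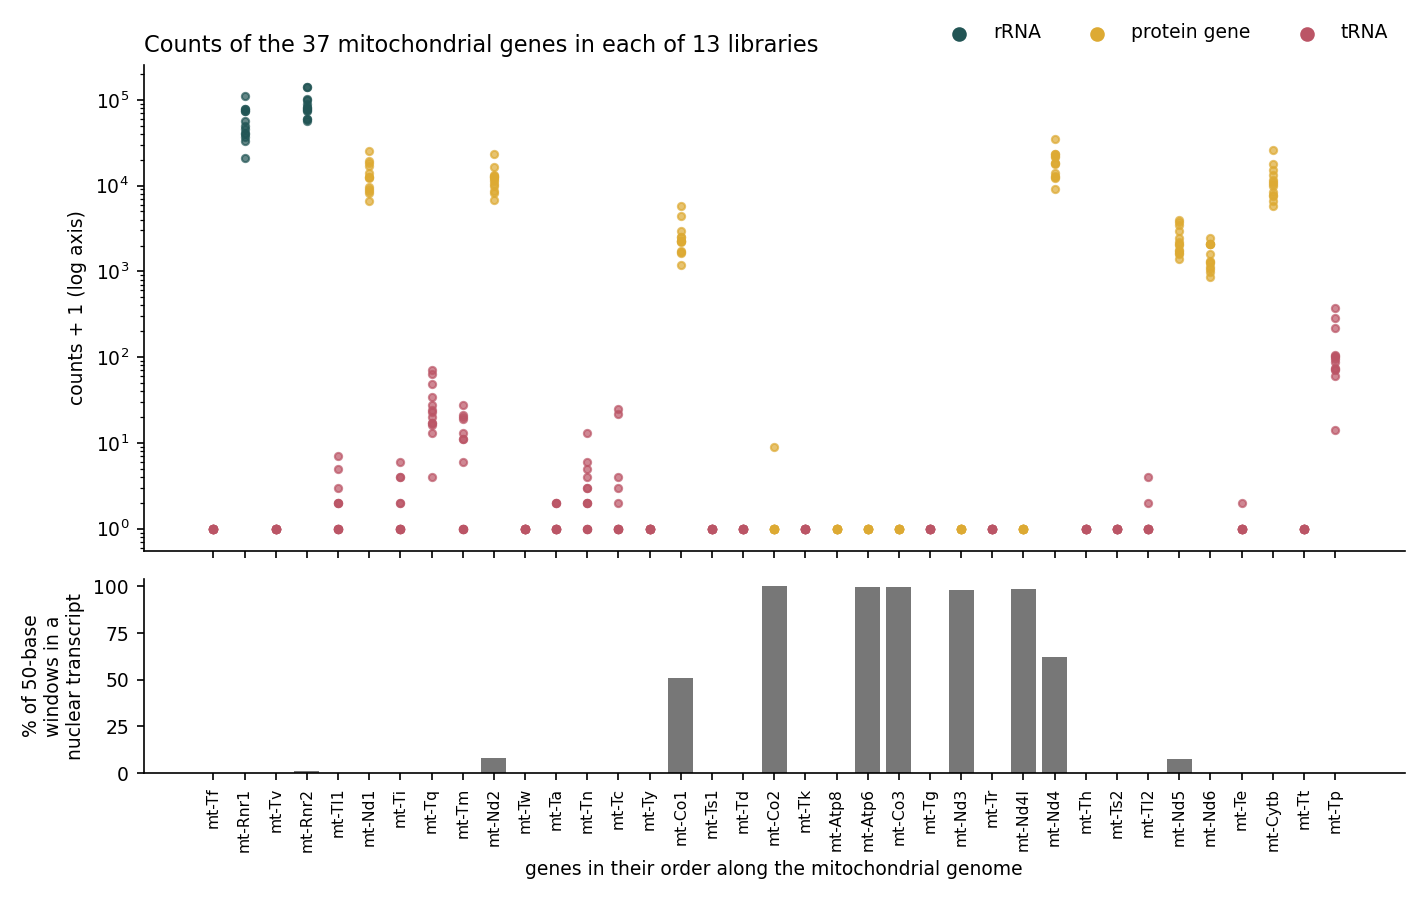
The upper panel gives counts plus 1 on a log axis for each of 37 genes in each of 13 libraries, in gene order along the mitochondrial genome, and the lower panel the percent of 50-base windows of each gene that occur exactly in an annotated nuclear transcript. The stretch from mt-Co2 to mt-Nd4l lies at or near 0 counts, and 5 of its 6 protein genes have 98.0% to 100% of their windows in nuclear transcripts.

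Of these 6 genes, 5 have near-identical copies in the nuclear annotation, mt-Atp8 being the exception. A cluster of 7 genes on the minus strand (chr1:24611535-24616197, mm10, 4663 bases) holds, in the order of the mitochondrial genes, Gm29216 (part of mt-Co1), Gm28661 (mt-Co2), Gm10925 (mt-Atp6), Gm28437 (mt-Co3), Gm28438 (mt-Nd3), Gm10222 (mt-Nd4l) and Gm28439 (the first 876 bases of mt-Nd4), all annotated as unprocessed pseudogenes. Gm10222 and 2 copies named further on, Gm4076 and Gm11410, were added after their values were seen. Identity was 100% for mt-Co2, mt-Atp6, mt-Co3, mt-Nd4l and the matched part of mt-Nd4, 99.8% for the last 483 bases of mt-Co1 and 99.7% for mt-Nd3. A shared end and both mismatched sites are shown with mismatches in capitals, 5' to 3' along each transcript.
mt-Co3, chrM:9360-9389: ctatacgtctccatttattgatgaggatct
Gm28437, chr1:24613189-24613218, minus strand: ctatacgtctccatttattgatgaggatct
mt-Co1, chrM:6390-6419: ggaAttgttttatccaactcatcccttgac
Gm29216, chr1:24616159-24616188, minus strand: ggaTttgttttatccaactcatcccttgac
mt-Nd3, chrM:9459-9488: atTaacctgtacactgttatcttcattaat
Gm28438, chr1:24613090-24613119, minus strand: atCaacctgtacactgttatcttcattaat
The mismatch of mt-Co1 was A1066T and that of mt-Nd3 was T3C, counted from the first base of the mitochondrial gene, with the mitochondrial base first.

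Sharing with the nuclear annotation was then measured in windows along each gene. Of the 50-base windows, 100% for mt-Co2, 99.5% for mt-Atp6, 99.9% for mt-Co3, 98.0% for mt-Nd3 and 98.8% for mt-Nd4l occurred exactly in an annotated nuclear transcript. In mt-Atp8 no window did. Its counterpart would lie in the 233 bases between Gm10925 and Gm28661, where no gene is annotated, and it shares its last 43 bases with mt-Atp6. Among the counted genes the share was 0% for mt-Rnr1, mt-Nd1, mt-Nd6 and mt-Cytb, 1.04% for mt-Rnr2, 7.61% for mt-Nd5 (its closest copy is Gm4076), 8.19% for mt-Nd2, 51.1% for mt-Co1 and 62.2% for mt-Nd4. In mt-Nd4 the matched part is the 5' part, and no window of its last 300 bases was found in a nuclear transcript. In mt-Co1 all windows of the last 300 bases were found, and the gene had counts nevertheless. In mt-Nd2, 31.9% of the windows of the last 300 bases were found. The search covered annotated transcripts, not the whole genome. How the authors treated reads that match several places is not given in the sources used here, and the part of these copies in the low counts of these genes was not tested. Since such reads could have been split or dropped, the values of mt-Co1 and mt-Nd2 are uncertain in this respect. The same holds, for smaller shared parts, for mt-Nd5 and mt-Rnr2. For mt-Nd4, as far as annotated transcripts show, it holds for reads from the matched 5' part.

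The copies themselves had few counts. All 7 genes of the chr1 cluster together had 245 counts over the 13 libraries, 4 to 52 per library. Gm28438 had 138 of them, with 35, 43 and 4 in WT, 3, 0 and 3 in KO, 2, 9 and 24 in flox, and 6, 2, 2 and 5 in cKO. The count was high in 2 WT libraries and 1 flox library. In plain counts each WT library lay above each KO library, but relative to the library totals WT replicate 3 lay below KO replicates 1 and 3. A more diverged copy exists for mt-Cytb, which was among the counted genes. Gm11410 on chromosome 4 is 92.9% identical to mt-Cytb over 1142 bases and had 56 counts, against 150887 for mt-Cytb. Their ends show the differences in capitals, C1116T and C1129T by the same numbering.
mt-Cytb, chrM:15258-15287: atCgaagacaaaataCtaaaattatatcca
Gm11410, chr4:80005102-80005131, plus strand: atTgaagacaaaataTtaaaattatatcca

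In the constitutive knockout none of the tested members passed the test. Of the 37 members 12 passed the filter on low counts, namely both rRNAs, 7 protein genes and 3 tRNAs (mt-Tq, mt-Tm and mt-Tp). With the quasi-likelihood test of edgeR and p-values adjusted after Benjamini and Hochberg, 0 of the 12 were called between KO and WT, where 0% of all 13086 genes tested were called. None had an unadjusted p under 0.05 either, against 5.82% of all genes. For the 8 members with at least 1% of chrM counts, the log2 fold changes ran from -0.22 (mt-Nd2) to 0.20 (mt-Co1), with SE of 0.27 to 0.37, and 6 of the 8 were below 0. Among their 95% intervals the lowest bound was 0.559-fold (mt-Rnr1) and the highest was 1.83-fold (mt-Co1), while that of mt-Rnr2 was narrower, from 0.627-fold to 1.34-fold. The median over the 12 tested members was -0.10, beside -0.031 over all genes tested. No member separated the groups, whereas 9.47% of all genes had WT and KO libraries that did not overlap. With 3 embryos against 3, the exact permutation test cannot give a p below 0.1, and the smallest of the 12 members was 0.6.

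**Figure D4:**
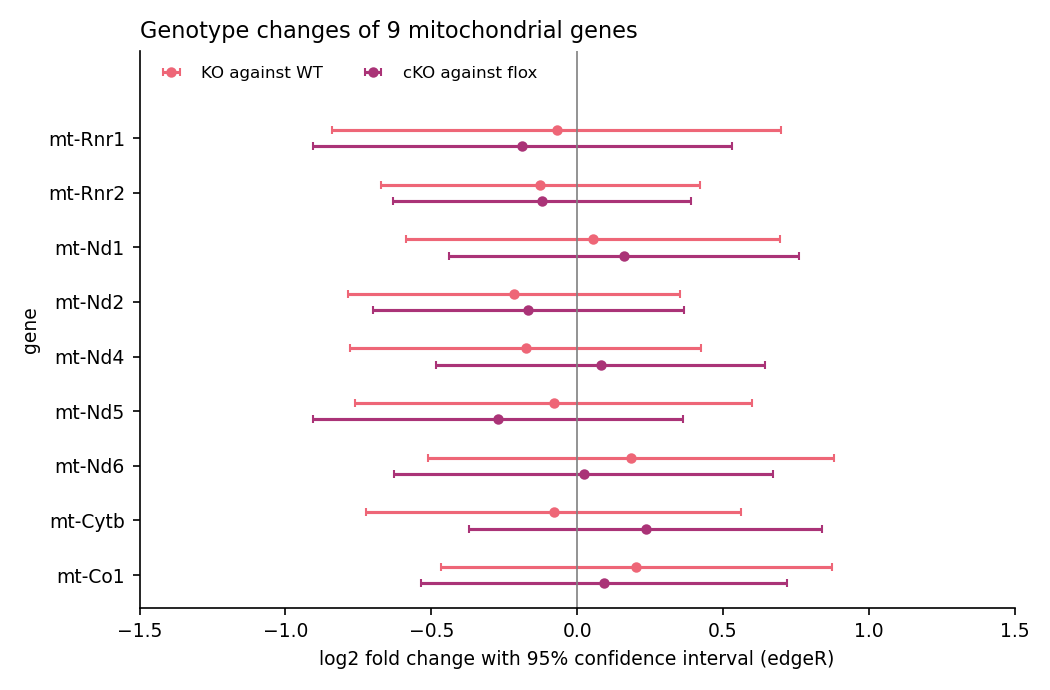
Points are log2 fold changes from edgeR for both rRNA genes and the 7 tested protein genes, and bars are 95% confidence intervals, for KO (n = 3) against WT (n = 3) and for cKO (n = 4) against flox (n = 3). All 18 intervals include 0, and no point lies farther from 0 than -0.27.

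The cKO, designed to delete GR in germ cells, gave the same count of calls. Between cKO and flox, 0 of the 12 tested members were called, beside 0% of all 13086 genes, and none had an unadjusted p under 0.05, against 3.19% of all genes. Log2 fold changes of the 8 main members ran from -0.27 (mt-Nd5) to 0.24 (mt-Cytb), with SE of 0.25 to 0.35, and 4 of the 8 lay below 0. Among the 95% intervals the lowest bound was 0.534-fold (mt-Nd5) and the highest 1.79-fold (mt-Cytb). The median of the 12 was -0.14, beside -0.010 over all genes. Groups overlapped in every member, while 4.94% of all genes had flox and cKO libraries that did not overlap. The exact permutation test, which could reach 0.0286 here, gave 0.429 as the smallest p of the 12 members. The difference between both genotype changes was tested directly as an interaction, and 0 of 12 members were called, with log2 differences of -0.19 to 0.32 in the 8 main members and an unadjusted p of at least 0.468. Here 0% of all genes were called and 4.39% had an unadjusted p under 0.05.

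Between the control groups of the crosses, no member passed the threshold. All 8 main members were lower in flox than in WT on the log2 scale. They ran from -0.69 ± 0.37 (SE) for mt-Rnr1 and -0.49 ± 0.27 for mt-Rnr2 to -0.079 ± 0.31 for mt-Nd1. The other tested members were mt-Nd6 at -0.0015 and the tRNAs mt-Tq, mt-Tm and mt-Tp at 0.028, 0.42 and 0.025. The median over the 12 tested members was -0.15, beside 0.0021 over all genes tested. The lowest unadjusted p was 0.0759, for mt-Rnr2, while 3.06% of all genes had one under 0.05, and 0 of 12 members were called, where 0.00764% of all genes (1 of 13086) were. The 3 flox libraries had mt-Rnr2 shares below all 3 WT libraries, 3.62% at most against 3.83% at least, with an exact permutation p of 0.1, the smallest that this design allows. Of all genes, 4.03% had flox libraries below all WT libraries. Without WT replicate 3, mt-Nd1, mt-Nd4 and mt-Cytb were higher in flox than in WT (0.21, 0.0081 and 0.34). Erythroid markers also differed between groups in unadjusted values, and in flox against WT their direction was opposite to that of the main members. Of 10 such genes 6 had counts, with Hba-x, Hbb-y, Hbb-bh1 and Alas2 at 0, and their sum was 86.2 to 238 CPM in WT, 0.403 to 156 CPM in KO, 284 to 1263 CPM in flox and 78.4 to 199 CPM in cKO. Of the 3 that were tested, all were above 0 in flox against WT, with a median log2 fold change of 2.45 and 2 with an unadjusted p under 0.05, and all were below 0 in cKO against flox, with a median of -1.97 and 3 with an unadjusted p under 0.05. None was called. Within flox, replicate 1 had both the highest erythroid sum (1263 CPM) and the highest chrM share of that group (9.02%). The part of the erythroid markers, and of the somatic markers given above by group, in the mitochondrial values was not tested. The crosses differ in alleles, tamoxifen and dams at once, so these cannot be told apart.

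Genes encoded in the nucleus that act on mitochondrial transcription, RNA processing and translation were read in the same way. Of 62 such genes listed, 60 were in the table and 50 were tested. None was called in either genotype comparison. Between KO and WT, 23 lay above 0 and 27 below, with a median log2 fold change of -0.066 beside -0.031 for all genes. Between cKO and flox, 30 lay above 0 and 20 below, with a median of 0.29 beside -0.010 for all genes. Within the list for RNA processing, stability and modification, 20 of 27 lay above 0 with a median of 0.51. None of these 20 had an unadjusted p under 0.05. The medians of the other lists in cKO against flox were -0.16 for transcription and genome maintenance and -0.028 for translation factors. Between KO and WT, 12 of the 27 RNA processing genes lay above 0 and 15 below, with a median of -0.072.

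Tfam packages mitochondrial DNA and starts its transcription, and Polrmt is the mitochondrial RNA polymerase. Tfam was at 81.1, 130 and 137 CPM in WT and at 174, 239 and 165 CPM in KO, so the groups did not overlap. Of all genes, 3.81% had KO libraries above all WT libraries. Its log2 fold change was 0.73 ± 0.37 (SE), with an unadjusted p of 0.0589 and an adjusted p of 0.847. In cKO against flox its log2 fold change was -0.40 ± 0.34. For Polrmt the log2 fold changes were -0.38 ± 0.52 in KO and -0.070 ± 0.48 in cKO.

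Lrpprc protects mitochondrial mRNAs from decay, and Mtpap adds their A tails. Lrpprc had a log2 fold change of -0.27 ± 0.35 in KO and 0.64 ± 0.34 in cKO, and Mtpap had 0.53 ± 0.63 in KO and 0.89 ± 0.60 in cKO. Grsf1, an RNA-binding protein of mitochondrial RNA granules, was at 169, 179 and 178 CPM in flox and at 315, 249, 263 and 218 CPM in cKO, which did not overlap, as in 2.17% of all genes (cKO higher). Its log2 fold change was 0.55 ± 0.28, with an unadjusted p of 0.0565. The lowest unadjusted p of the list between KO and WT was 0.0212, for Nsun4, an rRNA methyltransferase of the mitochondrial ribosome, with a log2 fold change of -1.38 ± 0.56 and an adjusted p of 0.847. In cKO against flox its log2 fold change was 0.92 ± 0.53. The cKO libraries (39.8 to 62.3 CPM) lay above the flox libraries (14.2 to 32.3 CPM), as in 2.17% of all genes (cKO higher). Pde12, which trims A tails, had 1 count in each KO library and 0 to 43 in WT. Between cKO and flox the lowest was 0.0414, for Mterf3, a repressor of mitochondrial transcription, with at most 3 counts in a cKO library and with 2 to 26 in the flox libraries.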

How the data were processed

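Single-embryo libraries of sorted germ cells were prepared with the QuantSeq 3' FWD kit. Per the labels and methods, the authors trimmed reads with cutadapt, aligned them to mm10 with STAR 2.6.0 and counted them per gene with featureCounts 1.6.3. The deposited values are raw counts per gene, with annotation version, strand and multiple matches not given in the sources used here. The deposited result tables hold the authors' fold changes and p-values (edgeR 3.28.1, limma 3.42.2) and were not used. Genes were classed by GENCODE M21. Shares are percent of a library's counts. All 13 libraries entered 1 fit with 4 group means in edgeR 4.0.16 (TMM, filterByExpr with a minimum count of 10 and a total of 15), with calls at an adjusted p of at most 0.05. The procedure was tested on simulated data. Single genes also had two-sided exact permutation tests on percent of counts. Nuclear matches used BLAST 2.17.0 and exact 50-base windows in annotated transcripts. Values in every library are given for members with at least 1% of chrM counts. Nuclear genes named are up to 3 with the lowest p in each genotype comparison, plus Tfam, Polrmt, Lrpprc and Mtpap. Members and lists were chosen with earlier results of these data known. Each library is 1 embryo, litters are not given, and litter mates share their mother's mitochondrial genome.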

Additional observations from a re-analysis of the deposited data

Results flagged for a closer look

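Among the 4 cKO libraries, 18 shares and ratios were examined for a library far from the others by Dixon's criterion, which chance meets in about 1 of 20 groups, and 2 passed. In cKO replicate 4, mt-Nd2 had 0.468% of the counts, against 0.409% to 0.417% in the other cKO libraries. In the same library mt-Nd5 had 0.106%, against 0.0702% to 0.0746%. Both genes encode complex I subunits, and both values lay inside the range of the flox libraries.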

How the results depend on the processing

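None of the 8 main members was called under any alternative, in 184 values for each genotype comparison and 176 for each of the other contrasts. Calls of the other members under the alternatives are not given here. The number of genes called moved: with no filter on low counts it was 15 for KO against WT, 11 for cKO against flox, 8 for the difference of genotype changes and 15 for flox against WT, and with DESeq2 it was 12, 5 and 10 for the first 3 of these. With at least 10 counts in every library it was 0 for flox against WT. Leaving out 1 library at a time gave 0 to 2 calls for KO against WT and 1 to 4 for flox against WT, both highest without WT replicate 3. None of these calls was one of the 8 main members, and the cause was not tested. Other denominators (nuclear counts, TMM effective library size) moved no mean share by more than the spread between embryos. For tRNA, leaving out flox replicate 1 did so, and the log2 ratio of mean shares ranged from -1.004 to 0.31 for cKO against flox and from -0.93 to 0.39 for flox against WT.

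Signs of changes near 0 were not stable. With limma voom the log2 fold change of mt-Nd1 in KO against WT was -0.094, and the differences of genotype changes were 0.14 for mt-Rnr1 and 0.0010 for mt-Nd5. For mt-Rnr2 that difference was -0.0036 with RLE, -0.011 with no filter and -0.0034 with DESeq2. By mean log2 CPM mt-Nd1 differed by -0.030 between KO and WT, and as percent of chrM counts mt-Nd5 differed by 0.021 and mt-Cytb by 0.26 percentage points. Leaving out 1 library at a time changed the sign of these log2 values. For KO against WT they ranged from -0.66 to 0.27 for mt-Rnr1, -0.57 to 0.19 for mt-Rnr2, -0.47 to 0.35 for mt-Nd1, -0.62 to 0.012 for mt-Nd2, -0.21 to 0.55 for mt-Co1, -0.50 to 0.027 for mt-Nd4, -0.60 to 0.17 for mt-Nd5 and -0.37 to 0.40 for mt-Cytb. For cKO against flox they ranged from -0.51 to 0.38 for mt-Rnr1, -0.23 to 0.049 for mt-Rnr2, -0.058 to 0.34 for mt-Nd1, -0.089 to 0.36 for mt-Co1, -0.15 to 0.50 for mt-Nd4 and -0.45 to 0.16 for mt-Nd5. For the difference of genotype changes they ranged from -0.46 to 0.48 for mt-Rnr1, -0.30 to 0.46 for mt-Rnr2, -0.18 to 0.63 for mt-Nd1, -0.17 to 0.46 for mt-Nd2, -0.45 to 0.31 for mt-Co1, -0.44 to 0.34 for mt-Nd5 and -0.16 to 0.61 for mt-Cytb. For flox against WT they ranged from -0.25 to 0.21 for mt-Nd1, -0.57 to 0.073 for mt-Nd4, -0.60 to 0.018 for mt-Nd5 and -0.34 to 0.34 for mt-Cytb.

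Replicate numbers recur across groups but name no shared litter, and deviations of same-numbered libraries correlated at -0.023 to 0.064 over genes. With the replicate block, calls were 0 for both genotype comparisons and for their difference and 1 for flox against WT, as without it, and the difference of genotype changes of mt-Rnr1 was 0.016.

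The 25 members that did not pass the filter on low counts were not tested for genotype changes. The part of depth in their low counts was not tested either.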
